A study of Mus musculus with 15 samples.

Results

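Mouse 5-5 carried an erythroid leukemia, and its spleen was compared with the spleens of mice 2-3, 2-3-2 and 2-3-3, whose leukemias had the same label. These are the 5 arrays labelled erythroid, of 15 arrays in the series: 2 arrays of mouse 5-5 (repl1 and repl2) and 1 array each of mice 2-3, 2-3-2 and 2-3-3. All of these mice, and all others in the series, belong to a Cbx7-overexpression model, so no spleen without the overexpressed gene was available as a background. The labels give no strain, age, sex, vector or treatment, and they do not say what the numbers in the mouse names mark. Mice 2-3, 2-3-2 and 2-3-3 share their first numbers and may not be independent, in which case the p-values below understate the error. Mouse 5-5 is 1 mouse on 2 arrays, and its values are given for each array. RNA came from unsorted spleen cells, so every value mixes leukemia cells with whatever else the spleen held, and fewer cells of a type cannot be told apart from less RNA per cell. Of the other labelled mice, 7 had T-cell leukemia (8 arrays) and 1 had undifferentiated leukemia (1 array).

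Cbx7 is a chromobox protein of polycomb repressive complex 1, which keeps genes silent through marks on histones. Erythroid leukemias arise from precursors of red cells, which fill with heme and globin and build a specialised membrane skeleton. The spleen of a mouse also makes red cells, and its red pulp holds macrophages that clear old ones. Interferons act on most cell types through Stat and Irf transcription factors and switch on a large, well known set of antiviral and antigen-presenting genes. NF-kB, a second family of transcription factors, mediates the response to cytokines such as tumour necrosis factor and interleukin 1.

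The arrays were of unequal quality. Array 1 of mouse 5-5 detected 11580 of 25697 probes and array 2 detected 7382, against 12605 for mouse 2-3, 7554 for mouse 2-3-2 and 11500 for mouse 2-3-3 (detection p under 0.05). The brightest 5% of probes began at an intensity of 816 and 219 on the arrays of mouse 5-5, and at 1151, 282 and 724 on those of mice 2-3, 2-3-2 and 2-3-3. The second array of mouse 5-5 and the array of mouse 2-3-2 were therefore weak, and the lowest normalised log2 signal of a detected probe was 6.15 and 6.09 there, against 4.86 to 5.02 on the other 3. Over 9021 genes, the 2 arrays of mouse 5-5 correlated at 0.810, less than array 1 did with mouse 2-3 (0.916) or mouse 2-3-3 (0.885). By the array numbers in the labels, array 1 of mouse 5-5 and mouse 2-3 fall among arrays 1 to 8, and array 2 and mice 2-3-2 and 2-3-3 among arrays 9 to 16. The labels do not say that the arrays of a range were run together. Differences within these 2 ranges are given for the 18 higher genes, for Ptprs and for the main lists. The probe for Cbx7 was not detected on any of the 5 arrays (log2 4.62 and 4.37 in mouse 5-5, and 4.44, 4.72 and 4.52 in mice 2-3, 2-3-2 and 2-3-3), so it does not check the model.

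Genes of a red cell membrane list read higher in all 5 spleens than in the other leukemias, but globins did not. Besides membrane genes the list holds others, such as Fech, Bpgm and Bcl2l1. Of its 34 genes, 32 and 30 were detected on the arrays of mouse 5-5, and 32, 33 and 33 on those of mice 2-3, 2-3-2 and 2-3-3. Their mean normalised log2 signal was 9.55 and 9.41 in mouse 5-5 and 8.75, 8.95 and 8.77 in the other 3 mice, against 5.59 to 8.43 in the T-cell leukemias and 8.33 in the undifferentiated one. Genes of heme synthesis and iron averaged 9.57 and 9.64, and 9.06, 8.92 and 8.96, against 6.71 to 8.85 and 8.69. Globins overlapped, at 12.96 and 12.34, and 12.50, 11.34 and 12.12, against 6.47 to 12.55 and 12.25. T-cell genes averaged 6.50 and 6.01 in mouse 5-5 and 6.12, 6.02 and 5.44 in mice 2-3, 2-3-2 and 2-3-3, below the 7.26 to 8.99 of the T-cell leukemias.

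In the comparison over 9021 genes, 18 were higher in mouse 5-5 (0.2% of the genes) and 1 was lower (0.0111%), or 19 in either direction (0.211%), at a limma adjusted p under 0.05. At an unadjusted p under 0.05, 376 genes were higher (4.17%) and 392 lower (4.35%). For each of the 18 higher genes, both arrays of mouse 5-5 lay above all 12 other labelled arrays, T-cell and undifferentiated ones included, as for 591 of all genes (6.55%). Of the 18, 8 stood in the lists of interferon, NF-kB, acute phase or chemokine genes, which together held 108 of the genes tested and were written with earlier results of these data known. Among these 8, Ubd, Cxcl9 and Il18 were kept for testing only because both arrays of mouse 5-5 detected them, so their direction was fixed. The largest log2 differences were those of Cfb, Saa3 and Ubd, and the plot of these genes by array shows no overlap between mouse 5-5 and the 3 other erythroid mice.

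**Figure D1:**
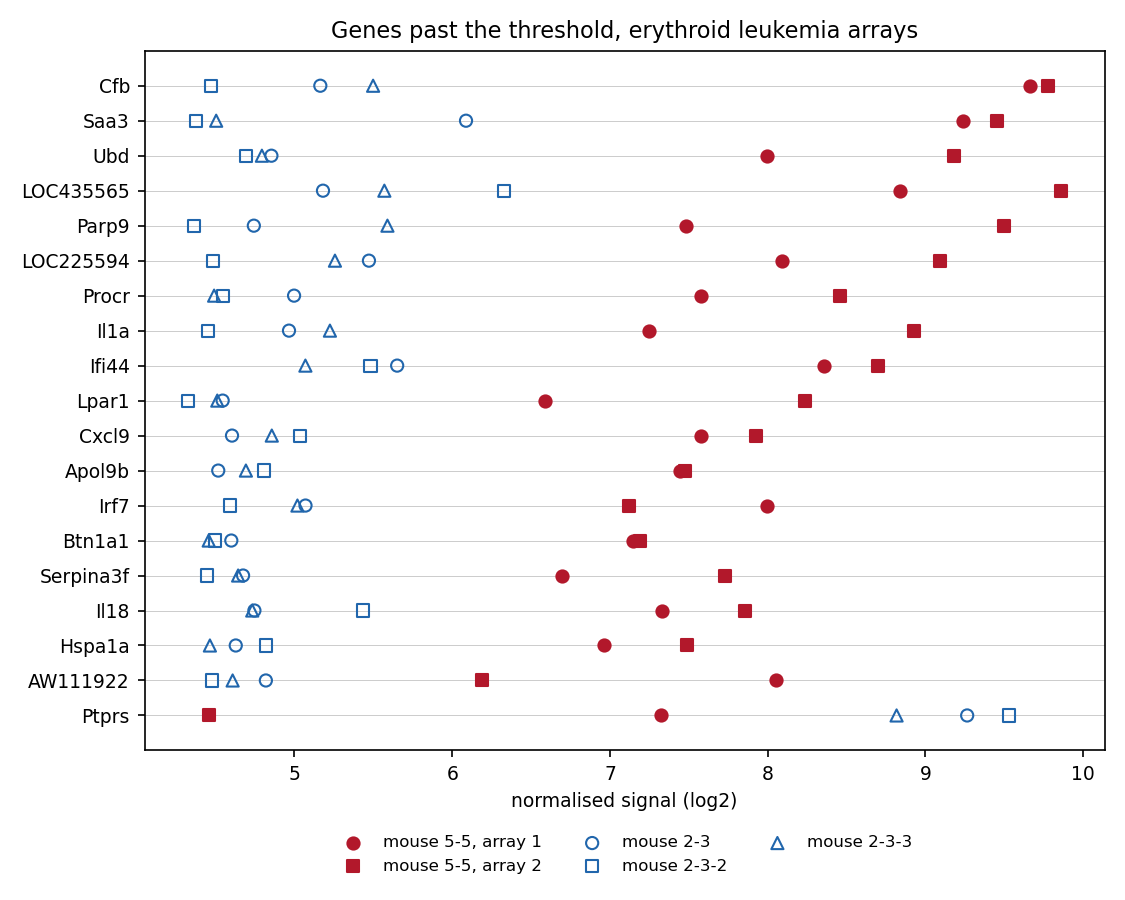
Normalised log2 signal (horizontal axis) of the 19 genes past the threshold, 1 row per gene, ordered by the difference. Filled red symbols are the 2 arrays of mouse 5-5 and open blue symbols the arrays of mice 2-3, 2-3-2 and 2-3-3. In the top 18 rows both red symbols lie to the right of all blue ones, and in the last row, Ptprs, they lie to the left.

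Cfb encodes complement factor B, the protease of the alternative complement pathway. Its log2 signal was 9.66 and 9.78 on the arrays of mouse 5-5, against 5.16, 4.47 and 5.50 in mice 2-3, 2-3-2 and 2-3-3, a difference of 4.67 ± 0.50 (SE, adjusted p = 0.0167). Before normalization its intensity was 1020 and 295 in mouse 5-5 and 153, 104 and 142 in the other 3. The gene was detected in mouse 5-5 on both arrays and in mice 2-3 and 2-3-3, but not in mouse 2-3-2. The T-cell leukemias ranged from 4.98 to 6.47 (per mouse, here and below), and the undifferentiated one stood at 4.61.

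Ubd encodes FAT10, a ubiquitin-like protein that marks proteins for the proteasome and is known to be induced by interferon gamma and tumour necrosis factor. Its log2 signal was 8.00 and 9.18 in mouse 5-5 and 4.85, 4.69 and 4.79 in mice 2-3, 2-3-2 and 2-3-3 (difference 3.81 ± 0.37 SE, adjusted p = 0.0152). It was not detected on any array of the 3 other erythroid mice. For such genes the fold is a lower bound, set against the lowest detected signal of each array or the probe's own value where that was higher. By this bound Ubd was at least 9.65-fold higher in mouse 5-5. In the T-cell leukemias it reached at most 4.83.

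**Figure D2:**
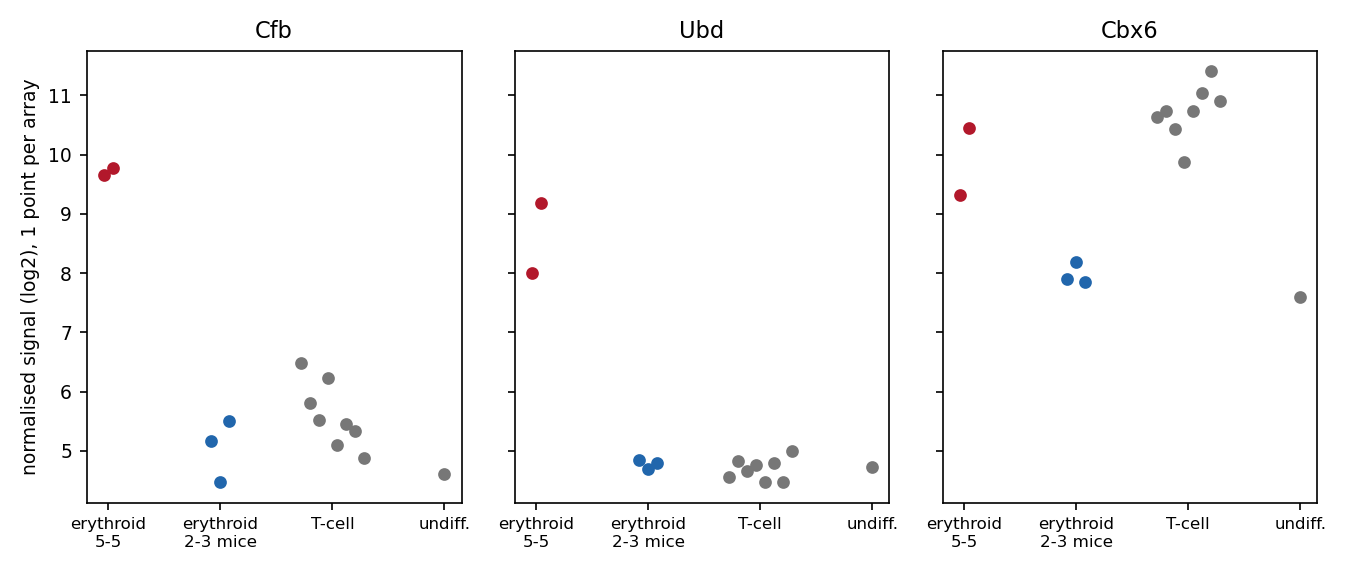
Normalised log2 signal of Cfb, Ubd and Cbx6 (panels), 1 point per array, in erythroid mouse 5-5 (red), erythroid mice 2-3, 2-3-2 and 2-3-3 (blue), and the T-cell and undifferentiated leukemias (grey). Cfb and Ubd were high in mouse 5-5 alone; for Cbx6, mouse 5-5 lay between the other erythroid mice and the upper T-cell mice.

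Further acute phase and interferon-related genes were among those that rose in mouse 5-5, and they are not given in order of size. Saa3, an acute phase protein that macrophages make, had a log2 signal of 9.24 and 9.45 in mouse 5-5 and 6.09, 4.38 and 4.50 in mice 2-3, 2-3-2 and 2-3-3 (difference 4.35 ± 0.69 SE, adjusted p = 0.0475). Parp9, a partner of the ubiquitin ligase Dtx3l in interferon signalling, stood at 7.48 and 9.50 in mouse 5-5, against 4.74, 4.37 and 5.59 (3.59 ± 0.50, adjusted p = 0.0348). Both arrays of mouse 5-5 were high, but for Parp9 they differed by 2.01, the widest gap among the 18 genes. Irf7, a transcription factor that amplifies type I interferon, was at 8.00 and 7.12 in mouse 5-5 and at 5.07, 4.59 and 5.02 in the other mice (2.67 ± 0.41, adjusted p = 0.0466). Ifi44, an interferon-induced protein, was at 8.36 and 8.70 in mouse 5-5, against 5.65, 5.48 and 5.07 (3.13 ± 0.50, adjusted p = 0.0475). Another probe for Ifi44, which the detection filter did not keep, differed by 0.81. The locus LOC225594 was higher by 3.52 (adjusted p = 0.0348). Its gene ID is now named Gm4841, and its synonym marks it as an interferon gamma inducible GTPase. Saa3 and Parp9 were each detected in 1 of the 3 other erythroid mice, and Irf7, Ifi44 and LOC225594 each in 2. Where these genes were not detected, the values given are background signal.

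Cytokines and chemokines formed a second group. Il1a, the precursor of interleukin 1 alpha, had a log2 signal of 7.25 and 8.93 in mouse 5-5 and 4.97, 4.45 and 5.22 in mice 2-3, 2-3-2 and 2-3-3 (difference 3.21, adjusted p = 0.0348). Il18, a related cytokine that drives interferon gamma production, was at 7.33 and 7.85, against 4.75, 5.43 and 4.73, and was at least 4.83-fold higher (adjusted p = 0.0475). Cxcl9, a chemokine induced by interferon gamma that attracts activated T cells, was at 7.58 and 7.93, against 4.60, 5.03 and 4.86, and was at least 5.39-fold higher (adjusted p = 0.0348). Neither Il18 nor Cxcl9 was detected in any of the other erythroid mice, and Il1a was detected in 2 of these 3. In the list of 31 measured chemokines, cytokines and receptors these 3 rose and 28 did not pass, with a median difference of 0.15 (-0.12 within arrays 1 to 8 and 0.45 within arrays 9 to 16). Of these 31 genes, 8 (25.8%, against 11.6% of all genes) had both arrays of mouse 5-5 above the other mice. Another 4 (12.9%, against 13.7% of all genes) had both below. The 8 include Il18, Cxcl9 and Cxcl10, which were kept only because both arrays of mouse 5-5 detected them. The interferon gamma receptor genes Ifngr1 and Ifngr2 differed by -0.16 and -0.10.

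The remaining higher genes were of mixed function. Procr, the protein C receptor of endothelium and blood stem cells, was at 7.58 and 8.46 in mouse 5-5 and at 5.00, 4.55 and 4.49 in mice 2-3, 2-3-2 and 2-3-3 (difference 3.34, adjusted p = 0.0348). Procr was detected in 1 of these 3 mice. It was the only one of 19 measured stem and progenitor genes that passed. Lpar1, a receptor for lysophosphatidic acid, was at least 4.26-fold higher (log2 6.59 and 8.24 in mouse 5-5, against 4.54, 4.33 and 4.51, adjusted p = 0.0346). Apol9b, of the apolipoprotein L family, was at least 4.40-fold higher (7.45 and 7.47, against 4.52, 4.81 and 4.69, adjusted p = 0.0463). Hspa1a, an inducible Hsp70 chaperone, was at least 3.74-fold higher (6.96 and 7.49, against 4.63, 4.82 and 4.46, adjusted p = 0.0348). Hspa1a alone passed among 20 genes of heat shock and the unfolded protein response, whose median difference was -0.30. LOC435565, a locus without a current name, was the only one of the 18 detected on all 5 arrays (8.84 and 9.86, against 5.18, 6.33 and 5.57, difference 3.66, adjusted p = 0.0348).

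Btn1a1, Serpina3f and AW111922 completed the 18. They fell outside the rule for naming genes and are named here after their values were seen. Btn1a1, a butyrophilin, was at 7.14 and 7.19 in mouse 5-5, against 4.60, 4.50 and 4.46, at least 3.59-fold higher (adjusted p = 0.0348). Serpina3f, a serine protease inhibitor, and AW111922, listed as a synonym of the interferon-inducible GTPase gene Iigp1, were at least 3.71-fold and 3.48-fold higher (adjusted p = 0.0348 and 0.0463). Of the 18 genes, 9 were detected on no array of mice 2-3, 2-3-2 and 2-3-3. They belong to 82 genes that were kept for testing only because both arrays of mouse 5-5 detected them, so their direction followed from the filter.

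The number of genes past the threshold depended on single arrays. Each of the 18 had the same sign in every one of the 20 alternative settings in which it had a value. For the 9 genes undetected in the other mice the filter had fixed it. For all 18, both arrays of mouse 5-5 lay above all other erythroid mice, so leaving out arrays or mice could not reverse a sign. Only settings that changed the values or the model could have. Without array 2 of mouse 5-5, Cfb, Ubd and AW111922 still passed; without mouse 2-3, Cfb, Ubd and Saa3; without mouse 2-3-3, Cfb, Ubd and Parp9. Without array 1 of mouse 5-5, leaving its weak array alone, 127 genes were higher and 163 lower, 17 of the 18 among the higher ones. With both weak arrays left out, 10 of the 18 passed. Within arrays 1 to 8, array 1 of mouse 5-5 exceeded mouse 2-3 for all 18 genes, by 2.02 to 4.50, and within arrays 9 to 16, array 2 exceeded the mean of mice 2-3-2 and 2-3-3 for all 18, by 1.65 to 5.01. These signs followed from the same lack of overlap, so they are no separate support. By limma, no gene passed within either range of arrays (at an unadjusted p under 0.05, 230 higher and 184 lower in the first, 442 and 545 in the second), nor under median scaling in place of quantile normalization (64 and 239). Median scaling moved the median of all genes to -0.40, and the 18 genes then differed by 1.61 to 3.91.

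The 2 ranges of array numbers were also compared over all genes, as the plot of both differences shows. Of the 9021 genes, 2687 (29.8%) were higher in mouse 5-5 within both ranges, and so were 35 of 40 genes of the interferon response (87.5%). These 35 include Cxcl9 and Cxcl10, which were kept only because both arrays of mouse 5-5 detected them.

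**Figure D3:**
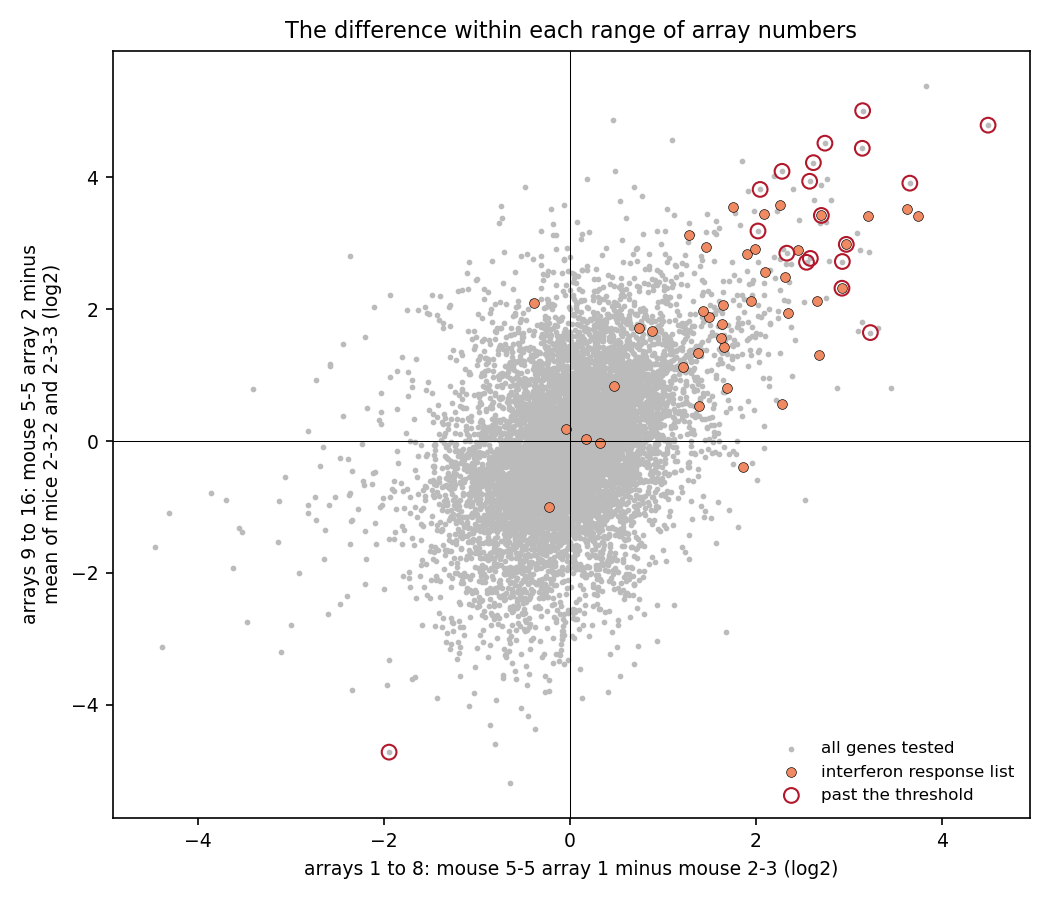
Log2 difference within arrays 1 to 8 (horizontal axis, array 1 of mouse 5-5 minus mouse 2-3) and within arrays 9 to 16 (vertical axis, array 2 of mouse 5-5 minus the mean of mice 2-3-2 and 2-3-3). Grey points are all 9021 genes, orange points 40 interferon response genes and red circles the 19 genes past the threshold. The circles of the 18 higher genes and 35 of the orange points lie in the upper right part. For the 18 genes this position followed from their lack of overlap.

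Promoters of 12 of the 18 higher genes were found in RefSeq (mouse build GRCm38.p6; 250 bases before to 50 after the start). They were searched on both strands for an NF-kB site, for the interferon-stimulated response element (GAAA, any 2 bases, GAAA) and for the gamma-activated site bound by Stat factors (TTC, any 3 bases, GAA). An NF-kB site was found for 1 of the 12 genes (4.51% of all 32851 promoters hold one), a response element for 2 (3.44%) and a gamma-activated site for 1 (8.3%). The promoters of Ubd (chr17:37193642-37193941, plus strand), Saa3 (chr7:46715627-46715926, minus strand) and Apol9b (chr15:77728822-77729121, plus strand, the first of its 2 starts) show the NF-kB site and the response elements in capitals. In Apol9b 2 overlapping elements lie on the opposite strand.
Ubd: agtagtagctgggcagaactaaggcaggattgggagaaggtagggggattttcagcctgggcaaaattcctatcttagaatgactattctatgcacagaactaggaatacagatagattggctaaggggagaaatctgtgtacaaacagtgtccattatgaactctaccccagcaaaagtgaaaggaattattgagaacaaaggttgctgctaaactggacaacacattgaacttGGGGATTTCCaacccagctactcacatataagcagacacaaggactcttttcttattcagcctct
Saa3: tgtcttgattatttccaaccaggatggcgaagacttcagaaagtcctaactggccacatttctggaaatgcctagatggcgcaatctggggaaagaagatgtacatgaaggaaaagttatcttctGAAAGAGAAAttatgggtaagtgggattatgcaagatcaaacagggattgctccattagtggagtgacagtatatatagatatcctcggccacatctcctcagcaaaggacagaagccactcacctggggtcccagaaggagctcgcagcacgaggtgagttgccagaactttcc
Apol9b: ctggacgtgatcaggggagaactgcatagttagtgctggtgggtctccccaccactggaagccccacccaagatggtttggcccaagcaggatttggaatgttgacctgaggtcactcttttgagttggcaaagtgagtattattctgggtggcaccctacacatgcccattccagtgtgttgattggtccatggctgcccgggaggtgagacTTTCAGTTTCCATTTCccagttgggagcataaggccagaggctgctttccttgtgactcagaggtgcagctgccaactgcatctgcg
A match shows only that these letters lie in the window. The site in Ubd begins 15 bases before the start, the element in Saa3 125 bases before it, and those in Apol9b 37 and 31 bases before it. Serpina3f held the gamma-activated site 121 bases before the first of its 2 starts.

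Among the lists with at least 8 measured members, the interferon response list had the largest share of members above the other mice. Of 51 members, 40 were measured, and 3 rose (Cxcl9, Irf7 and Ifi44), none fell and 37 did not pass. Both arrays of mouse 5-5 lay above all 3 other erythroid mice for 32 of the 40, where 11.6% of all genes did, and below them for none, where 13.7% did. The 32 include Cxcl9 and Cxcl10, which were kept only because both arrays of mouse 5-5 detected them, so their direction followed from the filter. At an unadjusted p under 0.05, 26 were higher and 0 lower, where 4.17% and 4.35% of all genes were. The median difference was 2.02, against -0.06 over all genes, and it was 1.72 within arrays 1 to 8 and 2.01 within arrays 9 to 16. The list's mean log2 signal was 8.84 and 8.54 in mouse 5-5 and 7.10, 6.40 and 6.84 in mice 2-3, 2-3-2 and 2-3-3, with the T-cell leukemias at 6.21 to 7.03 and the undifferentiated one at 6.42. Under median scaling 13 of the 40 lay above all other erythroid mice (3.00% of all genes did), and the median difference was 1.44.

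**Figure D4:**
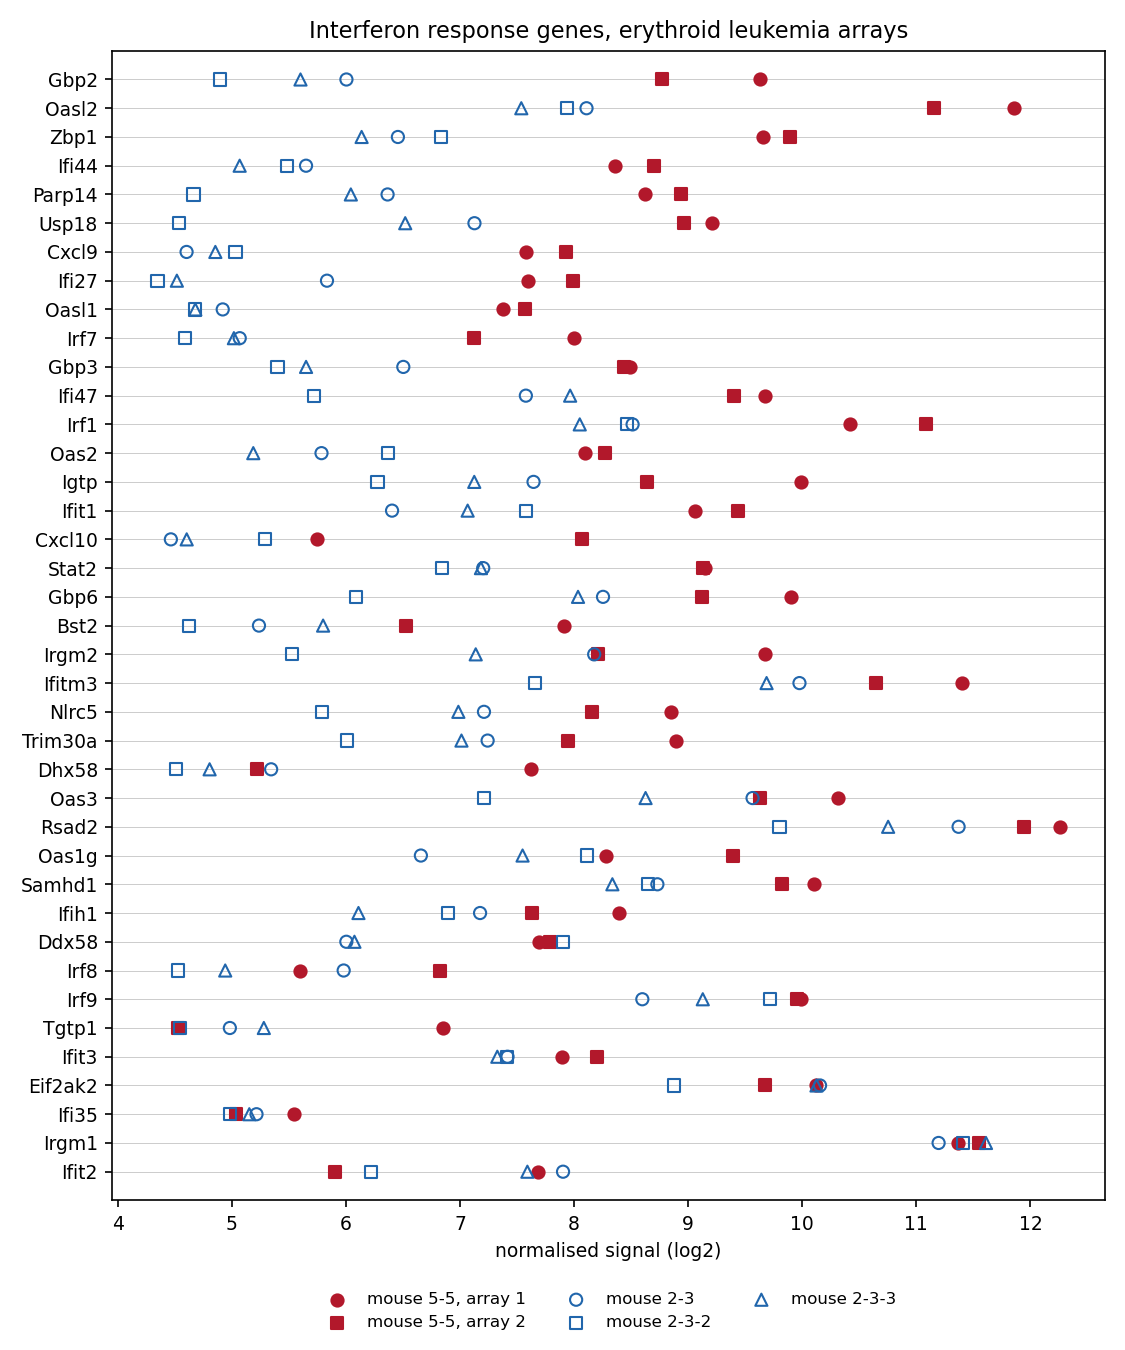
Normalised log2 signal (horizontal axis) of 39 of the 40 measured interferon response genes, 1 row per gene, ordered by the difference. Filled red symbols are the arrays of mouse 5-5 and open blue symbols those of mice 2-3, 2-3-2 and 2-3-3. The red symbols lie to the right of all blue ones in 31 rows; the lowest rows overlap.

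Some members that sense viral nucleic acid or act on it came close to the threshold or showed no overlap, and others overlapped. Members named from here on beyond the naming rule were chosen after their values were seen. Oasl1 and Oasl2, of the 2'-5'-oligoadenylate synthetase family, differed by 2.72 (adjusted p = 0.0504) and 3.64 (adjusted p = 0.0532). Oasl2 had log2 signals of 11.85 and 11.16 in mouse 5-5, against 8.11, 7.94 and 7.54 in mice 2-3, 2-3-2 and 2-3-3. Ifit1, which binds viral RNA, stood at 9.06 and 9.44, against 6.40, 7.58 and 7.07, and Zbp1, a sensor of nucleic acid, at 9.66 and 9.89, against 6.46, 6.83 and 6.14. Neither passed (adjusted p = 0.34 and 0.457). The RNA sensor genes Ddx58 and Dhx58 differed by 1.08 and 1.54 with overlapping arrays (adjusted p = 0.853 and 0.467). Rsad2, the antiviral enzyme viperin, was already strong in mice 2-3, 2-3-2 and 2-3-3 (11.37, 9.80 and 10.75) and stood at 12.26 and 11.94 in mouse 5-5.

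Among the GTPases of cell defence and the transcription factors of the pathway, AW111922, LOC225594 and Irf7 passed, as described above. Several others showed no overlap without passing. The guanylate-binding protein gene Gbp2 was at 9.63 and 8.77 in mouse 5-5, against 6.00, 4.90 and 5.60 (difference 3.70, adjusted p = 0.0615). Stat2, a signal transducer of the type I response, was even within each side: 9.15 and 9.13 in mouse 5-5, against 7.20, 6.84 and 7.18 (difference 2.06, adjusted p = 0.189). Irf1, which interferon gamma induces, was at 10.42 and 11.09, against 8.51, 8.46 and 8.05 (2.41, adjusted p = 0.192). Cxcl10, a chemokine related to Cxcl9, was undetected in the other erythroid mice and at least 3.00-fold higher in mouse 5-5, at 5.74 and 8.07 (adjusted p = 0.137). Not every member was high. Ifit2 differed by -0.45, the GTPase genes Irgm1 and Tgtp1 by 0.05 and 0.75, Irf8 by 1.06, Ifi35 by 0.17 and the RNA-dependent kinase gene Eif2ak2 by 0.18, all with overlapping arrays.

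Genes of antigen presentation, which interferons also induce, followed in part. Of 22 measured members of the MHC class I and immunoproteasome list, none passed. At an unadjusted p under 0.05, 3 were higher and 1 lower, where 4.17% and 4.35% of all genes were. Both arrays of mouse 5-5 lay above the other 3 mice for 13 (59.1%, against 11.6% of all genes). Both lay below for 2 (Canx and Tap2, 9.09%, against 13.7%). The median difference was 0.98, with 0.54 within arrays 1 to 8, 1.00 within arrays 9 to 16 and 0.37 under median scaling. B2m, the light chain of class I molecules, was at 11.93 and 11.59 in mouse 5-5 and at 11.12, 8.53 and 10.67 in mice 2-3, 2-3-2 and 2-3-3. Psmb9, an inducible proteasome subunit, was at 10.51 and 10.02, against 9.49, 6.44 and 8.70. For both, mouse 2-3-2 with its weak array was the lowest by far. Among 13 ubiquitin-like modifiers and their enzymes, Ubd alone passed. Usp18, which removes the interferon-induced modifier Isg15, differed by 3.03 (adjusted p = 0.479).

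In the NF-kB list, 2 of 24 measured members rose (Ubd and Il1a), none fell, and 11 (45.8%, against 11.6% of all genes) had both arrays of mouse 5-5 above the other mice and none below. The 11 include Ubd and Cxcl10, which were kept only because both arrays of mouse 5-5 detected them. The median was 0.82, with 0.54 within arrays 1 to 8, 1.13 within arrays 9 to 16 and 0.24 under median scaling. Tnfaip3, the inhibitor A20, was at 8.23 and 7.89 in mouse 5-5 and at 5.85, 4.55 and 5.83 in the other erythroid mice (difference 2.65, adjusted p = 0.275). The NF-kB subunit genes Nfkb1 and Rela differed by -0.67 and 0.29 and overlapped. In the list of acute phase, complement and antimicrobial genes, 2 of 22 rose (Cfb and Saa3) and 10 (45.5%, against 11.6% of all genes) lay above with none below. The median was 0.47, but 0.05 within arrays 1 to 8, 0.84 within arrays 9 to 16 and 0.16 under median scaling. C4b, complement component 4, was at 8.10 and 8.42 in mouse 5-5, against 6.12, 4.48 and 5.38 (difference 2.94, adjusted p = 0.133). C3, the central complement component, was at 7.32 and 7.65, against 7.29, 4.43 and 5.78, so that array 1 of mouse 5-5 and mouse 2-3 hardly differed.

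Macrophage genes also had higher values in mouse 5-5 in part, and their part in the results above was not tested. By limma, none of 27 measured monocyte and macrophage genes passed. At an unadjusted p under 0.05, 7 were higher and 0 lower, where 4.17% and 4.35% of all genes were. Of the 27, 15 (55.6%, against 11.6% of all genes) had both arrays of mouse 5-5 above the other mice and none below. The list's median difference was 1.53, and 0.66 under median scaling. Its mean log2 signal was 7.43 and 7.59 in mouse 5-5 and 6.94, 5.33 and 5.92 in mice 2-3, 2-3-2 and 2-3-3. Marco, a scavenger receptor of spleen macrophages, was at 10.53 and 11.13, against 6.70, 4.93 and 6.54 (difference 4.77, adjusted p = 0.223). Spic, the transcription factor of red pulp macrophages, was at 8.59 and 9.02, against 6.19, 4.94 and 5.45 (3.28, adjusted p = 0.133). Csf1r, Cd163 and Aif1 were detected on all 5 arrays, and Lyz2 on neither array of mouse 5-5. The 2 ranges of array numbers differed for this list. Its median difference was 0.26 within arrays 1 to 8, where the interferon list had 1.72, and 2.11 within arrays 9 to 16, where the interferon list had 2.01. Mouse 2-3-2, whose array was weak, detected 5 of the list's members on the array, against 25 and 20 in mouse 5-5, 28 in mouse 2-3 and 19 in mouse 2-3-3.

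The only gene that fell in mouse 5-5 was Ptprs, a receptor tyrosine phosphatase. Its log2 signal was 7.32 and 4.46 in mouse 5-5, against 9.26, 9.53 and 8.82 in mice 2-3, 2-3-2 and 2-3-3 (difference -3.32 ± 0.49 SE, adjusted p = 0.0386). The difference was -1.94 within arrays 1 to 8 and -4.72 within arrays 9 to 16. The call was lost without array 2 of mouse 5-5, where the gene was not detected, and also without mouse 2-3 or mouse 2-3-3. With the range of array numbers as a covariate and the arrays of a mouse as correlated observations, it was lost too (adjusted p = 0.157). Of the 2 other probes for Ptprs that were kept, neither passed when all probes were tested (-1.10 and -2.07). Further probes for Ptprs, which the detection filter did not keep, differed by 0.15 and 0.29. The genes with the next smallest p were Ncl (nucleolin), Slc35d3, Atxn10, LOC665682 and Lmnb2 (a nuclear lamin), with adjusted p from 0.0565 to 0.133. For Ncl, array 1 of mouse 5-5 read 8.41 and array 2 read 4.50, against 9.05, 9.37 and 10.00. Atxn10, LOC665682 and Lmnb2 likewise had their lowest value on array 2 and lay closer to the other mice on array 1. Slc35d3, of a family of nucleotide sugar transporters, differed from these. It was undetected on both arrays of mouse 5-5 (4.77 and 4.42) and stood at 7.77, 6.95 and 7.48 in the other erythroid mice, at least 3.54-fold lower (adjusted p = 0.0615). The T-cell leukemias, at 4.39 to 5.26, and the undifferentiated one, at 4.52, were as low as mouse 5-5.

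Genes of megakaryocytes and of mast cells and basophils had lower values in mouse 5-5 in part, and none passed by limma. At an unadjusted p under 0.05, each list had 3 lower and 0 higher genes, where 4.35% and 4.17% of all genes were. Of 17 measured megakaryocyte and platelet genes, 6 (35.3%, against 13.7% of all genes) had both arrays of mouse 5-5 below the other erythroid mice. Both arrays were above for 2 (11.8%), near the 11.6% of all genes. The median was -0.92, with -1.23 within arrays 1 to 8, -0.97 within arrays 9 to 16 and -1.41 under median scaling. The list's mean log2 signal was 5.74 and 6.16 in mouse 5-5 and 6.97, 6.91 and 7.22 in mice 2-3, 2-3-2 and 2-3-3. It was 5.32 to 6.63 in the T-cell leukemias and 6.17 in the undifferentiated one, so low values were not particular to mouse 5-5. Fli1, a transcription factor of megakaryocytes and other blood cells, was at 5.61 and 4.46 in mouse 5-5 and at 7.55, 7.87 and 7.68 in mice 2-3, 2-3-2 and 2-3-3 (adjusted p = 0.158). For Fli1 the T-cell leukemias, at 7.38 to 8.90, also lay above mouse 5-5. The regulator of G protein signalling gene Rgs18 was undetected in mouse 5-5 and at least 4.40-fold lower (adjusted p = 0.53). Of 8 measured mast cell and basophil genes, 5 lay below (62.5%, against 13.7% of all genes) and 1 above (12.5%, against 11.6%). Mcpt8, a protease of basophils, was at 4.67 and 4.50 in mouse 5-5 and at 9.05, 6.30 and 8.94 in the others (adjusted p = 0.319), at least 5.74-fold lower. Gata2, a transcription factor of blood progenitors and mast cells, was at 5.84 and 4.88, against 8.18, 8.78 and 8.51 (adjusted p = 0.437). In the T-cell leukemias the median was 4.48 for Mcpt8 and 4.85 for Gata2, with maxima of 10.42 and 9.92. The undifferentiated leukemia stood at 4.44 and 7.85. The single member above was Hdc, the enzyme that makes histamine, at 11.66 and 12.30 in mouse 5-5, against 9.95, 10.26 and 9.49.

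Cbx6, a relative of Cbx7 that can take its place in the complex, did not pass. Its log2 signal was 9.32 and 10.46 in mouse 5-5, against 7.90, 8.19 and 7.85 in mice 2-3, 2-3-2 and 2-3-3 (difference 1.91 ± 0.49 SE, adjusted p = 0.275). The difference was 1.42 within arrays 1 to 8 and 2.44 within arrays 9 to 16. Both arrays lay above the other erythroid mice. The T-cell leukemias ranged from 9.87 to 11.40, and the undifferentiated one stood at 7.59. Of 9 measured members of polycomb repressive complex 2, none lay outside the range of the other mice on both arrays. Of 14 members of complex 1 other than chromobox genes, 4 lay above (28.6%, against 11.6% of all genes) and 3 below (21.4%, against 13.7%).

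Genes of the red cell membrane list and of heme synthesis also tended to higher values in mouse 5-5. None of the erythroid lists had a member past the limma threshold. At an unadjusted p under 0.05, the membrane list had 1 lower gene, the heme list 1 higher and the list of transcription genes 2 lower. Over all genes, 4.17% were higher and 4.35% lower. Of 33 measured genes of the red cell membrane list, 14 (42.4%, against 11.6% of all genes) had both arrays of mouse 5-5 above the other erythroid mice and none below. The median was 0.70, with 0.85 within arrays 1 to 8, 0.69 within arrays 9 to 16 and 0.38 under median scaling. Slc4a1, the anion exchanger band 3, was at 13.28 and 12.67 in mouse 5-5, against 12.63, 12.10 and 12.18. Rhag, of the Rh complex, was at 10.45 and 9.80, against 9.10, 8.63 and 9.12. Of 23 genes of heme synthesis and iron, 10 (43.5%, against 11.6% of all genes) lay above and none below. The median was 0.73, with 0.36 within arrays 1 to 8, 0.62 within arrays 9 to 16 and 0.30 under median scaling. They included Alas2, the first enzyme of heme synthesis in red cells, at 11.63 and 11.71, against 10.50, 11.14 and 10.40, and Hmox1, which breaks heme down and is also a macrophage gene, at 7.89 and 8.63, against 6.61, 4.58 and 6.06. Of 24 genes of erythroid transcription and the erythropoietin receptor pathway, 4 lay above (16.7%) and 3 below (Socs2, Lyl1 and Stat5a, 12.5%), near the 11.6% and 13.7% of all genes. Socs2, a feedback inhibitor of cytokine receptors, was at 5.87 and 7.62 in mouse 5-5 and at 8.51, 8.78 and 9.17 in the others (adjusted p = 0.34). In the integrated stress response list, 9 of 21 lay above (42.9%, against 11.6% of all genes) and 2 below (9.52%, against 13.7%). Those above included Trib3, a stress-induced pseudokinase, at 10.19 and 10.55, against 7.99, 8.61 and 6.90 (adjusted p = 0.64).

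Genes of cell division and of protein synthesis gave no call. In the mitosis list 7 of 26 members lay above (26.9%, against 11.6% of all genes) and 1 below (3.85%, against 13.7%), with a median of 0.46 that turned to -0.09 under median scaling. In the DNA replication list 1 of 31 lay above (3.23%) and 3 below (9.68%), with a median of 0.0022, and of -0.46 under median scaling. Among cytosolic ribosomal proteins none of 30 lay above and 5 below (16.7%), with a median of -0.24, and of -0.57 under median scaling. Median scaling put the median of all genes at -0.40. The plot of list shares sets the lists beside each other.

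**Figure D5:**
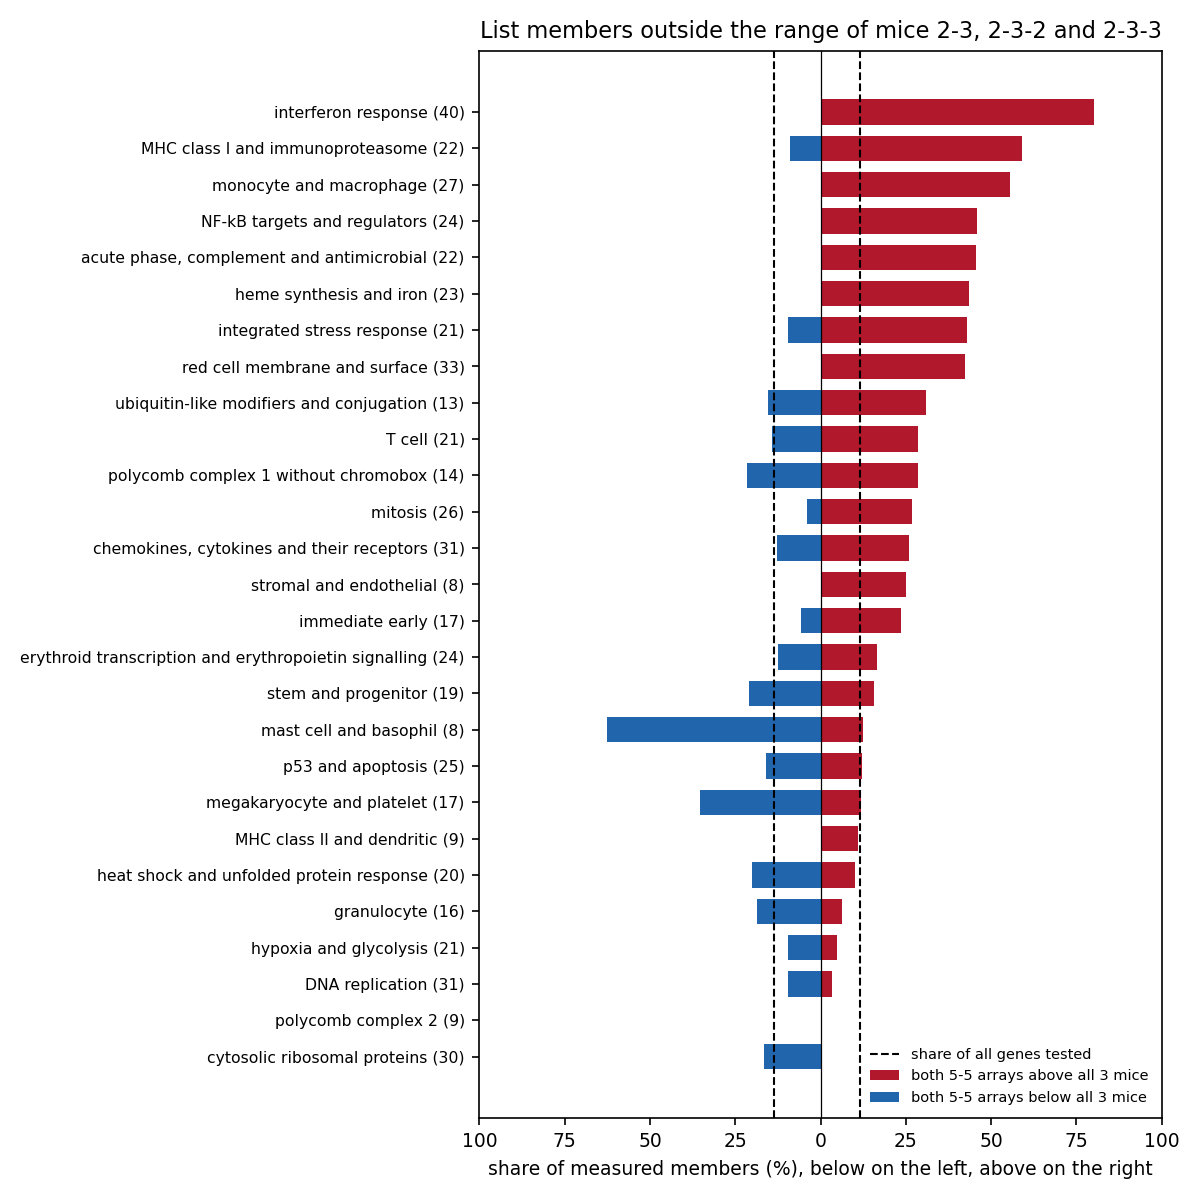
Share of measured members (horizontal axis, percent) of each list with at least 8 measured members whose 2 arrays of mouse 5-5 lay above (red, right) or below (blue, left) all 3 of mice 2-3, 2-3-2 and 2-3-3; the number measured stands in parentheses. Dashed lines mark the shares over all genes tested, 11.6% above and 13.7% below. The interferon response list has the longest red bar and the mast cell and basophil list the longest blue one.

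The first number of the mouse names also divides the T-cell leukemias, so the same contrast was made there. Between T-cell mice of number 5 (5, 5-1 and 5-3) and those of number 2 (2 and 2-2), limma gave no gene an adjusted p under 0.05 (0%), and 179 had an unadjusted p under 0.05 (1.98%). The 18 genes differed by -0.97 to 0.25 between these T-cell mice, with an adjusted p of 1.00 for Cfb and Ubd. The difference between the 2 differences was 2.52 to 5.64 for the 18 genes, with adjusted p from 0.0538 (Cfb) to 0.234. No gene passed this test by limma (0%), and 583 had an unadjusted p under 0.05 (6.46%); it used the same erythroid mice as the main comparison.

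Across the 12 labelled mice, the genes whose log2 signal was most like that of Cfb were Lpar1 (Pearson's r = 0.963), Gpx3, Pla2g7 and Procr. Those most like Ubd were Wnt5a (0.990), AW111922, Serpina3f and Hspa1a. For both genes mouse 5-5 is the one mouse that stands apart, and the likeness rests on it. The genes most like Cbx6, which varies between the leukemia types, were Abcb9 (0.964), Lsr, H1f0 and Plekha1. These coefficients describe the 12 mice and were not tested.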

How the data were processed

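RNA from unsorted mouse spleen was amplified as whole transcriptome and hybridised to bead arrays as biotin-labelled cDNA, per the labels' protocols. For 25697 probes on 15 arrays, the authors deposited intensities (means over beads) and detection p-values that had not been normalized between arrays. The sources used here do not name the software that summarised the beads. They also deposited processed values, which lie on a log2 scale and were made with limma and R 3.0.2, per the submitters' processing notes. Their lowest correlation with the values of this re-analysis was 0.999978, with column medians from 4.81 to 4.83, and served as an alternative.

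The deposited intensities were turned into log2 values by limma 3.58.1 (R 4.3.3) and its function neqc (background from the detection p-values, offset 16, quantile normalization over 15 arrays). Probes detected at p under 0.05 on at least 2 of the 5 erythroid arrays were kept (12287), and the probe of highest mean stood for each of 9021 genes. The 2 arrays of mouse 5-5 were averaged, as 1 mouse. One mean for each combination of leukemia type and first number of the mouse name was fitted over 12 labelled mice with lmFit and eBayes (6 residual degrees of freedom), so mouse 5-5 was assumed to vary like the others. P-values were two-sided and adjusted by Benjamini-Hochberg over all genes at 0.05. The code was tested on simulated data. The number of arrays limits the precision.

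Symbols were brought up to date through RefSeq (20733 probes current, 3677 renamed, 226 kept because another probe already had the current symbol, 1061 without a match). Named genes were the 12 largest changes in each direction past the threshold without overlap, or the 6 of smallest p where fewer than 6 qualified, with Cfb, Ubd, Cbx6, Cbx7, the sex-linked genes and up to 4 members per list (2 where none passed). The comparison, the lists and these rules were chosen with earlier results of these data known. The unlabelled array took part in the normalization only. Some genes of the lists count toward their totals and are not reported by name here.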

Additional observations from a re-analysis of the deposited data

Results flagged for a closer look

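Of the genes named for mouse 5-5, 20 were examined for single mice far from the others among the 7 T-cell leukemias, and 2 showed one (10%). Both were T-cell mouse 2, so the 2 are not independent. How often chance gives such a value was not computed. The log2 signal of T-cell mouse 2 for Ifi44 was 5.98, with the next mouse at 4.94 and the lowest at 4.74. For Procr it was 5.67, with the next mouse at 4.89 and the lowest at 4.54. Both values lie below the arrays of mouse 5-5 (8.36 and 8.70 for Ifi44, 7.58 and 8.46 for Procr).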

How the results depend on the processing

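The main setting gave 18 higher and 1 lower gene and 0 for the difference between leukemia types, and the counts moved with the setting. Of 473 values of named genes, which cover the 18, Ptprs, Cbx6 and lower genes that were not called, 0 reversed. For the 18 this is no measure of stability, because their lack of overlap fixed the sign wherever arrays or mice were only left out. Median scaling gave 0 higher and 0 lower, cyclic loess 4 higher, 0 lower and 2 for the difference between types, and normexp without detection p-values, which also took an offset of 50, 0 lower and 3 for the difference. An offset of 50 alone gave 27 higher and 3 for the difference. The filter on 3 of 14 arrays gave 9 higher and 0 lower, no filter 76 higher, 15 lower and 21 for the difference, and the filter on all 5 erythroid arrays 0 higher and 0 lower. Fitting the 4 erythroid mice only gave 0 higher and 0 lower, and the T-cell mice as 1 group 28 higher and 7 lower. Leaving out 1 array or mouse gave 3 to 127 higher genes, 0 to 163 lower ones and 0 to 37 for the difference, the highest of each without array 1 of mouse 5-5. Without both weak arrays the counts were 10, 2 and 1, within arrays 1 to 8 they were 0 and 0, and within arrays 9 to 16 also 0 and 0. Another fit took the range of array numbers as a covariate. It also did not average the arrays of a mouse but entered them as correlated observations, so it changed 2 things at once. Its counts were 37, 3 and 2, and Ptprs and AW111922 no longer passed by limma (adjusted p = 0.157 and 0.0836). The cause of these moves was not tested, except that filters change the number of genes and left-out mice the spread. Cfb and Ubd passed in 15 of 19 alternatives each. Adjusted p over the alternatives ran from 0.00227 to 1 for Cfb and from 0.00047 to 1 for Ubd. The authors' processed values gave the main counts, 18, 1 and 0. The median of the interferon list ran from 1.44 (median scaling) to 2.24 (without array 2 of mouse 5-5). Signal over background on the 2 weak arrays limits all genes with a log2 signal under 6.15. No paired analysis was possible because mouse 5-5 is a single mouse, and the ranges of array numbers, used as a covariate above, hold arrays and do not pair mice.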

Other observations

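The spleens of all erythroid mice read high for the X-inactivation transcript Xist and for the Y-linked gene Ddx3y at once. Xist had log2 signals of 10.60 and 11.31 in mouse 5-5 and 10.88, 11.65 and 11.42 in mice 2-3, 2-3-2 and 2-3-3. Ddx3y had 11.61 and 11.61 in mouse 5-5 and 11.31, 11.73 and 11.76 in the others. In the T-cell leukemias Xist ranged from 9.73 to 11.95 and Ddx3y from 11.21 to 12.32, and in the undifferentiated one they stood at 11.52 and 11.51. The labels give no sex for the mice or the cells.

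Granulocyte genes varied among the erythroid mice without following mouse 5-5. Their mean log2 signal was 6.08 and 5.55 in mouse 5-5 and 7.96, 5.33 and 6.17 in mice 2-3, 2-3-2 and 2-3-3. Prg2, the major basic protein of eosinophils, was at 9.51 and 5.78 in mouse 5-5 and at 11.50, 7.71 and 8.32 in the others, so the 2 arrays of mouse 5-5 lay further apart than mouse 2-3 and array 1. Dusp2, a phosphatase induced early after stimulation, read 5.09 and 8.06 on the 2 arrays of mouse 5-5.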
